A study of Mus musculus with 17 samples.

Results

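The regions described here are the open chromatin regions assigned to 7 genes of Toll-like receptor recognition in B cells, namely Tlr1, Tlr2, Tlr4, Tlr6, Tlr9, Cd180 and Myd88. The deposited table gives regions the gene symbol of the nearest transcription start and a further gene symbol, which regions outside genes carry too. A region was taken when either symbol was one of these 7. This gave 45 of 66177 regions, with 14 for Cd180, 12 for Tlr1, 6 for Tlr2, 5 for Tlr4, 4 for Tlr9 and 2 each for Tlr6 and Myd88. In 6 of the 45 regions only 1 of the symbols was a gene of this set, the other being Mast4, D930015E06Rik, Twf2 or Alas1. Regions are numbered along the chromosome within each gene. Assignment by nearness does not show which gene a region acts on.

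Toll-like receptors recognize microbial molecules and signal inside the cell through adaptor proteins. Tlr2 pairs with Tlr1 or Tlr6 on the cell surface to bind bacterial lipopeptides, Tlr4 binds lipopolysaccharide together with its co-receptor MD-2 (Ly96), and Tlr9 binds DNA with unmethylated CpG in endosomes. Cd180 (RP105) is a related surface protein of B cells that pairs with MD-1 (Ly86) and lacks the signaling domain of the Toll-like receptors. Myd88 is the adaptor through which Tlr1, Tlr2, Tlr4, Tlr6 and Tlr9 signal, and B cells can respond to their ligands by dividing and by becoming antibody-secreting cells.

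The assay was ATAC-seq, in which the Tn5 transposase inserts sequencing adapters into open DNA. It was run on naive B cells, called nB, on B cells of the germinal center, called GCB, and on plasma cells of the bone marrow, called BMPC. Dnmt3-deficient mice (KO) were Dnmt3a fl/fl Dnmt3b fl/fl with 1 copy of a Cre that is active in B-lineage cells, where the catalytic parts of both de novo DNA methyltransferases were deleted. Dnmt3-sufficient controls (C) were Dnmt3a fl/fl Dnmt3b fl/fl littermates, which carried both floxed genes without Cre. All groups were on the B6;129S4 background and came from mice of 8 to 12 weeks. The nB groups, 3 C and 2 KO libraries, were B220+ Fas- GL7- cells of lymph nodes from male mice that had not been immunized. The GCB groups, 2 C and 4 KO libraries, were PE-specific B220+ Fas+ GL7+ cells of lymph nodes, each pooled from 2 mice of 1 sex. C GCB replicate 2 and KO GCB replicate 4 came from males and the other GCB libraries from females. These mice were taken 30 days after immunization with phycoerythrin (PE) in complete Freund's adjuvant. The BMPC groups, 3 C and 2 KO libraries, were CD138+ bone marrow cells of female mice 30 days after the same immunization. The sort for BMPC did not select for PE binding, and 1 further KO BMPC sample in the labels was not analysed here.

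Values are RPPM, the reads in a region per 1000000 reads in all regions of the same library. The depth, as the sum of reads over all regions, lay between 4104875 and 6079018 for nB libraries, between 5357687 and 8232313 for BMPC and only between 907959 and 2280954 for GCB. A count of 3 reads, used as a floor, therefore equaled between 0.364 and 3.30 RPPM. The sorted populations were checked against markers. The start region of Fcer2a, a gene of naive B cells, averaged 42.4 RPPM in C nB, 14.3 in C GCB and 1.20 in C BMPC, that of S1pr2, a gene of germinal center B cells, averaged 14.4, 26.2 and 39.3, and the plasma cell receptor gene Tnfrsf17 was between 18.4 and 22.6 in C BMPC libraries and 0.392 on average in C nB. The region at Bcl6, a regulator of germinal center B cells, was lower in C GCB than in C nB, and of 5 plasma cell genes only Tnfrsf17 rose from nB to BMPC in C. Regions at the starts of Dnmt3a and Dnmt3b do not read the deleted exons. Across libraries they ranged from 15.4 to 28.0 (C) and from 10.5 to 25.1 RPPM (KO) for Dnmt3a, and from 25.1 to 40.6 (C) and from 19.6 to 45.7 RPPM (KO) for Dnmt3b.

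Of the 45 regions, 10 (22.2%) were annotated as promoters, against 21.7% of all regions, and 31 (68.9%) lay outside genes and promoters. Their median width was 507 bp against 510 bp, and their median level 7.72 RPPM against 5.99. Each of the 7 genes had a region at its annotated start. Sequences are shown for the Tlr9 start, the most open of the starts in nB and GCB, and for 5 distal regions of Cd180, Tlr1 and Tlr2 with different patterns across cell types. All are mm9 sequence of the plus strand, read 5′ to 3′, and capitals mark matches to the motifs named after them.
Tlr9_3, the 240 bases before the annotated start, chr9:106124689-106124928: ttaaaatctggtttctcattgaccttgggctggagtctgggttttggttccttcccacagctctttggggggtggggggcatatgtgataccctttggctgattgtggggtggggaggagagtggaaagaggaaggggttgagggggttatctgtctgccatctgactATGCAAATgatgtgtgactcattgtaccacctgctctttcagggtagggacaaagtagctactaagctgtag
Cd180_8, distal, chr13:103479684-103479983: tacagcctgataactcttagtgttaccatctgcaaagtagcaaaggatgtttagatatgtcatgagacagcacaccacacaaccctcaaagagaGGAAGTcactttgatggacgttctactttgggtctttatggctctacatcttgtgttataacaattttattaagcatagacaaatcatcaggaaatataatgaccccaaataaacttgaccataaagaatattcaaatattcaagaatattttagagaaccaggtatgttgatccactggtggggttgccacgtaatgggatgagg
Tlr1_6, distal, chr5:65297107-65297406: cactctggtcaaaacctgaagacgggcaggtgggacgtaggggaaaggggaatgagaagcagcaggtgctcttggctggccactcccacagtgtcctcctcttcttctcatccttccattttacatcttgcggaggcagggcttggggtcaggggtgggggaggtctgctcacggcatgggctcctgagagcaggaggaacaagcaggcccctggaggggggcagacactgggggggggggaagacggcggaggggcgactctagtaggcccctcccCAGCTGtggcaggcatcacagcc
Tlr1_7, distal, chr5:65300033-65300332: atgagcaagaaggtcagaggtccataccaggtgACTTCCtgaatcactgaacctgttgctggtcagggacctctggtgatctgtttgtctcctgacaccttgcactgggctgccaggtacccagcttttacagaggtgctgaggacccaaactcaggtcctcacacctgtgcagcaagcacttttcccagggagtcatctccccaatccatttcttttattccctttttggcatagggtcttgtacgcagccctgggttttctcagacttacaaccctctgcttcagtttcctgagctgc
Tlr1_10, distal, chr5:65314163-65314462: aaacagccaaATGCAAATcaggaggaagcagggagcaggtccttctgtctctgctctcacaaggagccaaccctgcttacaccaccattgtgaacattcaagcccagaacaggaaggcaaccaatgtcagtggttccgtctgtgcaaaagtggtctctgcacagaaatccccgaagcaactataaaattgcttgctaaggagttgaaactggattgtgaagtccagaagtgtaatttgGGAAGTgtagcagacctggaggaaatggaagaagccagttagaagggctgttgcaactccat
Tlr2_1, distal, chr3:83622446-83622745: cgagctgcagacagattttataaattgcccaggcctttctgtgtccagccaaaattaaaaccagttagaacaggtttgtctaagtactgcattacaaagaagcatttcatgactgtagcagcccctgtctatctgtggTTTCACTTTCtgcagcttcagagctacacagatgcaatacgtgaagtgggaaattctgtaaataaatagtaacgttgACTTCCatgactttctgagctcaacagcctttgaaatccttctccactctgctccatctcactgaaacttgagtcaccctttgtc

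The middle 300 bases of each region were searched on both strands for 5 motifs of factors known in B cells. The octamer ATGCAAAT, bound by Oct factors, was in 3 of the 45 regions (6.67%, Tlr1_2, Tlr1_10 and Tlr9_3) and in 3.96% of the 65893 regions on named chromosomes. In the Tlr9 sequence the octamer ends 65 bases before the annotated start. The ETS core GGAAGT was in 20 of the 45 regions (44.4%) and in 30.3% of all regions, and the E-box CAGCTG in 9 (20%) and 20.6%. An IRF element, taken as GAAA repeated after 2 bases, was in 7 of the 45 (15.6%) and in 7.16% of all regions. An ETS-IRF element, GGAA followed after 2 bases by GAAA, was in 2 of the 45 (4.44%) and 5.70% of all regions, and it can overlap the IRF element. Of the 21 regions that were lower in C BMPC than in C nB by the test described next, 11 held the ETS core (52.4%), 2 the ETS-IRF element (9.52%) and 0 the IRF element, and of the 21 regions that were not called 8 (38.1%), 0 and 5 (23.8%) did. Among all 13297 regions that were lower in C BMPC on named chromosomes the shares were 47.8%, 8.06% and 6.18%, and among all that were not called 27.2%, 4.99% and 5.95%. The octamer was in 2 of the 21 lower regions (9.52%) and 1 of the 21 not called (4.76%), against 4.72% and 2.89% over all regions. The E-box was in 3 (14.3%) and 5 (23.8%), against 17.5% and 19.6%. A match is a stretch of letters only, and no binding was measured.

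Levels at the 7 transcription starts were compared per kb of region, because the regions differ in width. Tlr9 had the highest start in nB and GCB of both genotypes. In C nB it averaged 65.7 ± 1.32 RPPM per kb (SD, n = 3), followed by Cd180 at 50.6 ± 5.27, Tlr4 at 42.5 ± 2.10, Myd88 at 36.0 ± 3.81, Tlr6 at 26.0 ± 5.29, Tlr2 at 23.3 ± 1.83 and Tlr1 at 19.7 ± 0.786. The libraries of Tlr6 and Tlr2 overlapped, and those of the other neighbors in this order did not. In C GCB the range was wider, from 91.7 ± 17.1 for Tlr9 to 7.41 ± 0.330 for Tlr1 (n = 2), and only Cd180 and Myd88 overlapped as neighbors. In C BMPC the order changed. Myd88 (43.5 ± 3.84), Tlr6 (39.2 ± 1.33), Cd180 (38.9 ± 2.68), Tlr9 (37.8 ± 1.49), Tlr2 (33.2 ± 6.94) and Tlr4 (30.9 ± 4.80) overlapped with their neighbors (n = 3), and Tlr1 stood apart at 12.3 ± 1.47. In KO BMPC Tlr9 was again first at 45.7 ± 0.588 and apart from Myd88 at 38.7 ± 0.141 (n = 2).

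**Figure D1:**
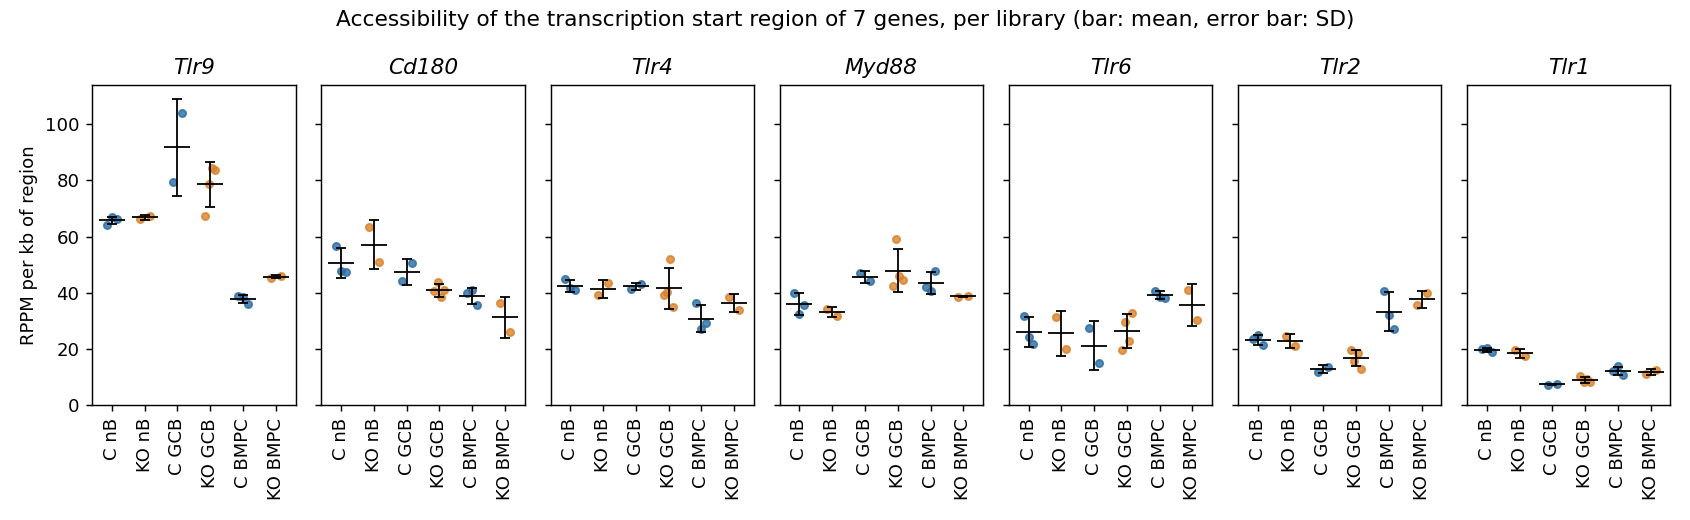
RPPM per kb of the region at the transcription start of each gene, by group on the x axis, with 1 point per library (C blue, KO orange), the mean as a bar and the SD as error bars (n = 2 to 4). Tlr9 is the highest start in nB and GCB, and in C BMPC 6 of the starts lie between 30.9 and 43.5 on average while Tlr1 averages 12.3.

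Cell types were compared within each genotype with limma on log2(RPPM + 1), and a region was called when its adjusted p over all 66177 regions was at most 0.01 and its change at least 2-fold. Fold changes are on this scale, which understates changes of low regions. From nB to BMPC in C, 21 of the 45 regions fell (46.7%) and 3 rose (6.67%), where 20.1% and 18.0% of all regions fell and rose. The regions that rose were Tlr1_6, Tlr1_8 and Tlr2_1. Counts of Tlr1_8 were low, at 1, 1 and 3 reads in C nB and 21, 14 and 22 in C BMPC. The median log2 fold change was -0.94 for the 45 regions and 0.03 for all regions. From GCB to BMPC in C, 19 fell and 2 rose, with 19.1% and 11.3% of all regions falling and rising, and medians of -0.75 and -0.06. The rising regions were Tlr2_1 and Tlr2_2. From nB to GCB in C, 5 fell and 2 rose, with 8.47% and 14.2% of all regions, and medians of -0.11 and 0.05. Tlr1_4, Tlr1_5, Tlr1_12, Tlr2_4 and Tlr4_5 fell, and Tlr1_6 and Tlr4_1 rose. Tlr4_1 had only 0, 1 and 0 reads in C nB and 7 and 2 in C GCB, so that all but C GCB replicate 1 lay under the floor. In KO its log2 fold change of 0.58 was not called. These 3 comparisons share libraries with each other.

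Promoters and other regions were counted apart. Of the 10 promoter regions 1, Tlr6_2, fell and 0 rose from nB to BMPC in C (median log2 fold change -0.26), and of the 35 other regions 20 fell and 3 rose (median -1.48). Among all regions, 6.41% of 14332 promoter regions and 23.9% of 51845 other regions fell, with medians of 0.10 and -0.03, so falls were rarer at promoters there too. By gene, 8 of 14 regions of Cd180 fell and 0 rose, 7 of 12 of Tlr1 fell and 2 rose, 2 of 6 of Tlr2 fell and 1 rose, 2 of 5 of Tlr4 fell, 1 of 4 of Tlr9 and 1 of 2 of Tlr6 fell, and neither of the 2 regions of Myd88 was called. The highest C mean was in nB for 25 regions, in GCB for 16 and in BMPC for 4, and this was not counted over all regions. In bulk libraries a change of accessibility in each cell and a change in the share of cells with an open region cannot be told apart. Sex, tissue and immunization differ between nB and BMPC libraries, so that they and the cell type cannot be told apart. The same holds for immunization between nB and GCB and for tissue between GCB and BMPC. In both comparisons with GCB it also holds for sorting by PE binding, pooling of mice and depth, and sex differs in part.

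The groups compared in KO hold no library of the groups compared in C. All libraries entered 1 fit with a shared estimate of the spread, so calls in KO and in C are not independent. From nB to BMPC in KO, 19 of the 45 regions fell and 4 rose (16.9% and 18.4% of all regions), from GCB to BMPC 16 fell and 2 rose (19.9% and 12.1%), and from nB to GCB 5 fell and 2 rose (7.84% and 18.4%). Of the regions that fell from nB to BMPC, 18 were shared, which is 85.7% of those in C and 94.7% of those in KO, against 77.4% and 92.3% over all regions. From GCB to BMPC 14 falling regions were shared, 73.7% of those in C and 87.5% of those in KO (81.3% and 78.2% over all regions). From nB to GCB 3 falling regions were shared, 60% of those in either genotype (62.9% and 67.9% over all regions). Of the rising regions, 1 was shared for nB to GCB, 50% of those in either genotype (85.2% of C and 65.8% of KO over all regions). For nB to BMPC 2 were shared, 66.7% of those in C and 50% of those in KO (82.8% and 80.9% over all regions). For GCB to BMPC 2 were shared, 100% of those in either genotype (71.8% and 66.9% over all regions). No region was called in opposite directions, and all regions called in C had the same sign of change in KO.

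**Figure D2:**
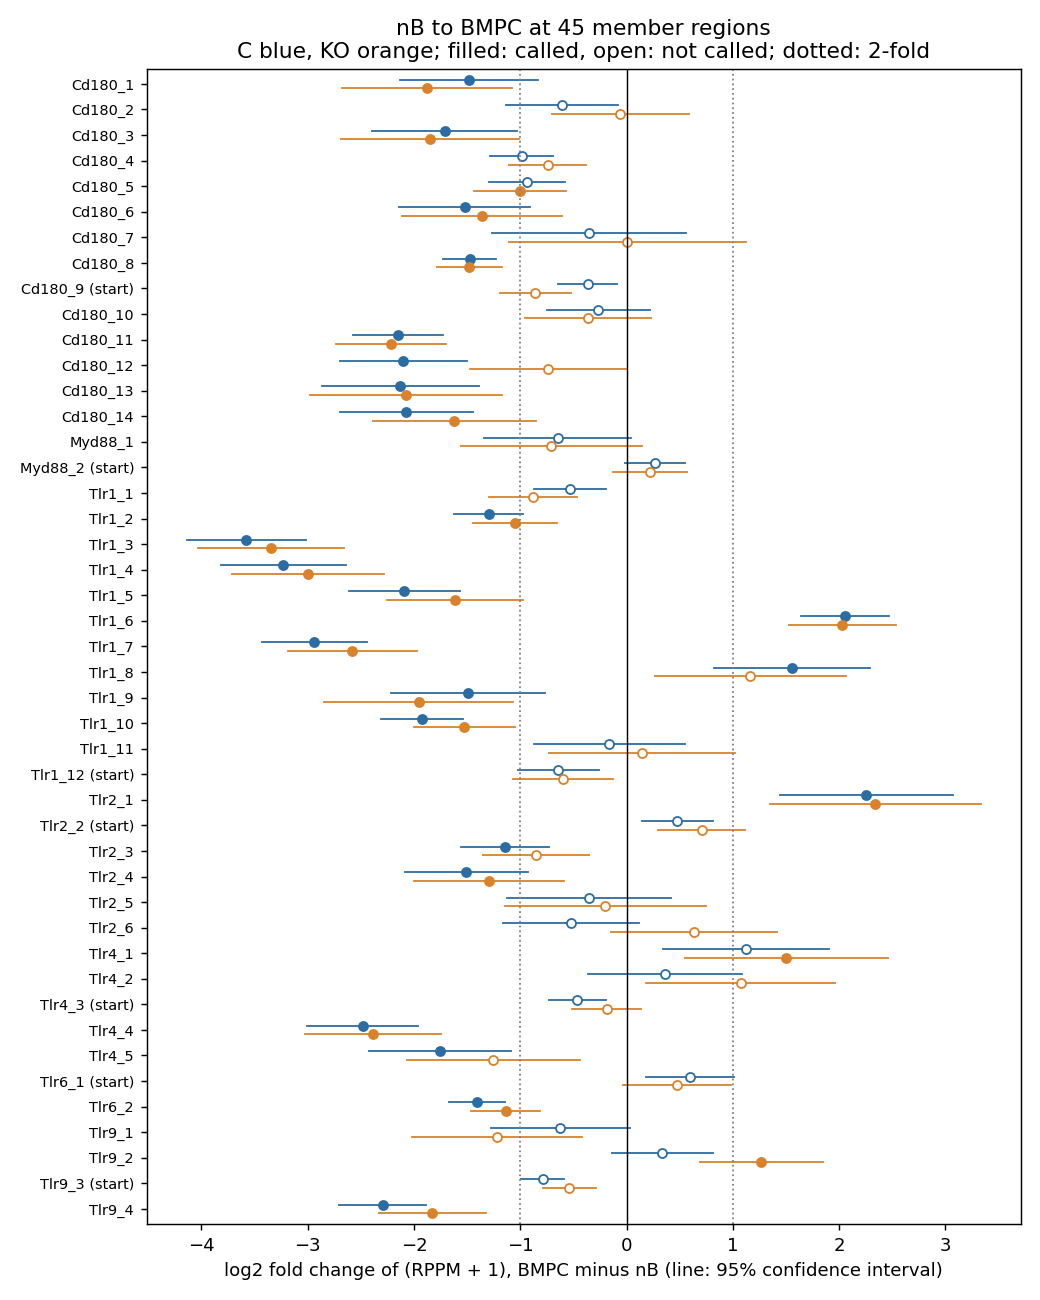
Fitted log2 fold change of (RPPM + 1) from nB to BMPC on the x axis for each of the 45 regions, in C (blue) and KO (orange), with 95% confidence intervals; filled points are called and dotted lines mark 2-fold. In C 21 regions fell and 3 rose, in KO 19 and 4, and none of the 7 start regions was called.

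Tlr9, the receptor for CpG DNA, had its start region Tlr9_3 at chr9:106124305-106125680, annotated as promoter, 5′ UTR, exon and intron. Its level was 88.4, 91.9 and 91.0 RPPM in C nB, 109.5 and 142.9 in C GCB and 53.5, 52.9 and 49.7 in C BMPC. KO libraries were at 91.1 and 92.7 in nB, 92.5, 108.2, 116.2 and 115.4 in GCB, and 62.3 and 63.5 in BMPC. The BMPC libraries lay below all nB and GCB libraries in both genotypes. The log2 fold change from GCB to BMPC in C was -1.25 ± 0.11 (SE; limma, adjusted p = 3.93e-10), and that from nB to BMPC was -0.79 ± 0.10 (adjusted p = 1.14e-07), which is under 2-fold and not called. In KO the changes were -0.77 ± 0.11 and -0.54 ± 0.12, neither reaching 2-fold.

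Downstream of Tlr9, the region Tlr9_4 at chr9:106132330-106133298 (7400 bp from the start, with Alas1 as its other symbol) was at 40.9, 38.6 and 38.5 RPPM in C nB, 30.8 and 31.4 in C GCB and 11.3, 5.84 and 5.61 in C BMPC. All BMPC libraries were lower than all others. The change from nB to BMPC was -2.29 ± 0.20 in C (limma, adjusted p = 1.34e-10) and -1.83 ± 0.25 in KO (adjusted p = 5.36e-07). The smaller promoter region Tlr9_2 was at 4.39, 4.90 and 6.14 RPPM in C nB, 6.50, 5.47 and 8.41 in C BMPC, 4.11 and 4.72 in KO nB, and 11.9 and 12.1 in KO BMPC. Both KO BMPC libraries were above all others. It rose from nB to BMPC in KO by 1.27 ± 0.28 on the log2 scale (limma, adjusted p = 4.75e-04), and its change of 0.34 ± 0.23 in C did not pass (adjusted p = 0.223). The difference between these changes, 0.93 ± 0.36, did not pass either (adjusted p = 0.755). Tlr9_2 was singled out after its values were seen.

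Cd180, the receptor that pairs with MD-1, has its start region Cd180_9 at chr13:103483027-103483895. This region was at 49.2, 41.4 and 41.1 RPPM in C nB, 38.3 and 44.03 in C GCB and 34.6, 35.6 and 31.1 in C BMPC. The log2 change from nB to BMPC was -0.37 ± 0.13 in C (limma, adjusted p = 0.0213) and -0.86 ± 0.16 in KO (adjusted p = 8.32e-05), and neither was called. Without KO nB replicate 2 or KO BMPC replicate 1 the change in KO was -1.01 or -1.08 and was called, with its spread taken from the other groups, as in all fits that leave a group with 1 library. Intronic region Cd180_11 (chr13:103490148-103490761, 6509 bp from the start) was at 20.5, 21.3 and 20.3 RPPM in C nB, 17.2 and 19.2 in C GCB and 3.77, 4.01 and 3.89 in C BMPC. It was at 27.6 and 24.6 in KO nB, 20.9, 15.3, 25.0 and 23.8 in KO GCB and 6.80 and 3.36 in KO BMPC. In both genotypes each BMPC library was below each nB and GCB library. The change from nB to BMPC was -2.15 ± 0.21 in C (limma, adjusted p = 8.88e-10) and -2.21 ± 0.25 in KO (adjusted p = 3.74e-08).

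The strongest distal region of Cd180, Cd180_8 at -3331 bp, was chosen after its values were seen. It was at 91.8, 69.5 and 82.8 RPPM in C nB, 111.7 and 107.7 in C GCB and 30.6, 27.0 and 27.9 in C BMPC, and at 31.6 and 25.6 in KO BMPC. The level in every BMPC library was below that in every nB and GCB library, with a log2 change of -1.48 ± 0.12 from nB to BMPC in C (limma, adjusted p = 4.54e-11) and -1.48 ± 0.15 in KO (adjusted p = 4.08e-09). The wide region Cd180_4 at -26444 bp was also singled out after its values were seen, as it was highest in GCB. It averaged 46.9 ± 5.58 RPPM in C nB, 64.6 ± 2.58 in C GCB and 23.3 ± 4.14 in C BMPC (SD), and 50.6 ± 1.08, 78.6 ± 14.8 and 29.9 ± 2.49 in KO. It fell from GCB to BMPC by 1.44 ± 0.16 in C and by 1.34 ± 0.15 in KO on the log2 scale (SE; limma, adjusted p = 2.58e-08 and 3.29e-08). Over its 14 regions, Cd180 summed to 263.1 ± 13.998 RPPM in C nB, 304 ± 6.03 in C GCB and 116 ± 8.54 in C BMPC. Of these regions 8 fell from nB to BMPC, 10 fell from GCB to BMPC and 0 were called between nB and GCB in C.

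**Figure D3:**
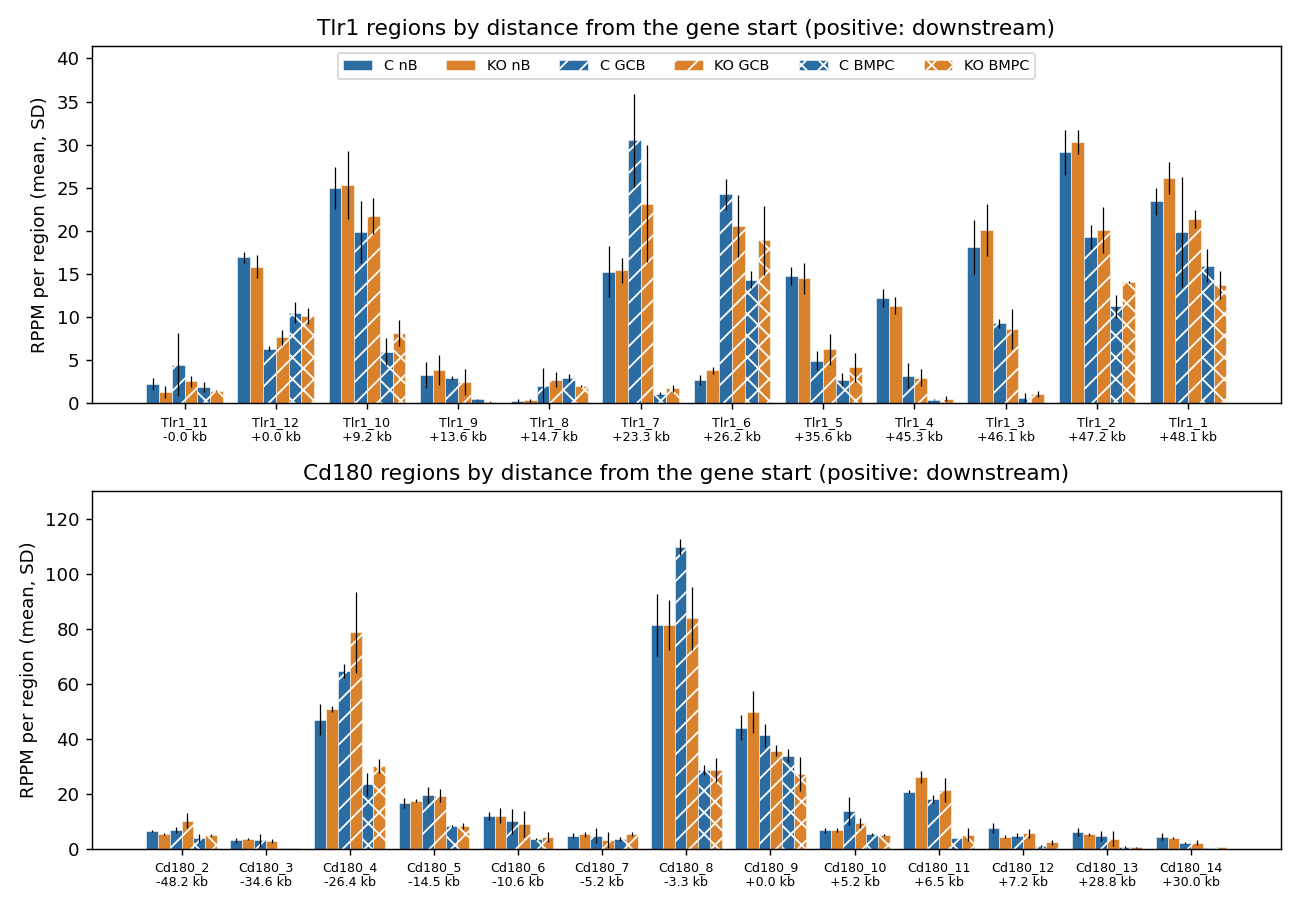
Mean RPPM of each region of Tlr1 (top) and Cd180 (bottom) by group, ordered by distance from the gene's start given under its name; error bars are SD (n = 2 to 4), C is blue and KO orange, and GCB and BMPC bars are hatched. The region Cd180_1, at -175613 bp, is not drawn. Tlr1_6 is low in nB (2.72 in C), Tlr1_3, Tlr1_4 and Tlr1_7 are at 1.11 or below in C BMPC, and Cd180_8 is at 28.5 in C BMPC against 81.4 in C nB.

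Tlr1, the partner of Tlr2 for triacylated lipopeptides, held the largest fitted fall and rise of the 45 regions in C. The table gives Tlr1_12 (chr5:65324277-65325134) as its start region, while the GENCODE vM1 model of the gene begins just beside it, in Tlr1_11 (chr5:65323957-65324267). Tlr1_11 had a different order, with means of 2.2 RPPM in C nB, 4.5 in C GCB and 1.9 in C BMPC. It was called in no comparison between cell types. Tlr1_12 was at 17.1, 17.5 and 16.2 RPPM in C nB, 6.16 and 6.56 in C GCB and 10.4, 11.9 and 9.34 in C BMPC. KO values were 16.8 and 15.0 in nB, 8.81, 7.001, 7.89 and 6.99 in GCB and 9.47 and 10.8 in BMPC. Levels were highest in nB and lowest in GCB, with no overlap between cell types. The change from nB to GCB was -1.28 ± 0.21 in C (limma, adjusted p = 1.55e-05), which is called, and -0.96 ± 0.20 in KO (adjusted p = 2.36e-04), which falls short of 2-fold. With the quasi-likelihood test of edgeR the change in KO was -1.16 and was called.

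The distal regions of Tlr1 lie between Tlr1 and Klf3, with no protein-coding gene between them in the annotation. Of the 10 outside genes, 7 fell and 2, Tlr1_6 and Tlr1_8, rose from nB to BMPC in C. In C BMPC Tlr1_3, Tlr1_4, Tlr1_7 and Tlr1_9 averaged 1.11 RPPM or less, while Tlr1_1 and Tlr1_2 still averaged 15.96 and 11.3. Tlr1_3 (chr5:65277363-65277805) was at 17.1, 21.7 and 15.6 RPPM in C nB, 9.68 and 8.90 in C GCB and 0.910, 0 and 1.09 in C BMPC, where the reads numbered 7, 0 and 7. It was at 17.9 and 22.2 in KO nB and 0.850 and 1.31 in KO BMPC. Its change from nB to BMPC was -3.58 ± 0.27 in C (limma, adjusted p = 1.01e-11) and -3.34 ± 0.33 in KO (adjusted p = 3.65e-09). Tlr1_4, its neighbor, fell in 2 steps, from 12.2 ± 1.04 RPPM in C nB to 3.21 ± 1.43 in C GCB and 0.407 ± 0.0532 in C BMPC, and was called in each of the 3 comparisons in both genotypes.

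Tlr1_6 (chr5:65296804-65297710, 26227 bp from the start) was at 2.92, 3.20 and 2.05 RPPM in C nB, 25.5 and 23.0 in C GCB and 14.7, 15.1 and 13.2 in C BMPC. KO libraries were at 4.11 and 3.54 in nB, 16.5, 21.0, 19.7 and 25.2 in GCB and 21.7 and 16.1 in BMPC. It was thus low in nB and raised in both other cell types. Of the 45 regions it alone was called higher in both, in C, than in nB, and this was not counted over all regions. Its change from nB to GCB was 2.77 ± 0.22 in C (limma, adjusted p = 1.45e-10) and 2.15 ± 0.21 in KO (adjusted p = 4.75e-09), and from nB to BMPC 2.06 ± 0.20 in C (adjusted p = 1.19e-09) and 2.03 ± 0.25 in KO (adjusted p = 9.97e-08).

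The next region, Tlr1_7 (chr5:65299772-65300595, 23342 bp from the start) was at 12.2, 15.6 and 18.1 RPPM in C nB, 34.3 and 26.7 in C GCB and 1.17, 0.912 and 1.25 in C BMPC. The KO libraries had 16.4 and 14.4 in nB, 13.2, 27.4, 27.6 and 24.5 in GCB and 1.46 and 2.05 in BMPC. All BMPC libraries were far below the rest. The change from GCB to BMPC was -3.89 ± 0.27 in C (limma, adjusted p = 3.49e-12) and -3.09 ± 0.26 in KO (adjusted p = 9.54e-11). Tlr1_10, which holds the octamer, fell from 25.0 ± 2.42 RPPM in C nB to 5.96 ± 1.56 in C BMPC, by 1.92 ± 0.19 on the log2 scale (SE; limma, adjusted p = 1.23e-09). Tlr1_4, Tlr1_7 and Tlr1_10 were picked after their values were seen.

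Tlr6, the other partner of Tlr2, lies beside Tlr1 on chromosome 5, and 1 of its 2 regions, Tlr6_2, was called. Start region Tlr6_1 (chr5:65350264-65351386) was at 35.8, 27.3 and 24.4 RPPM in C nB, 30.8 and 16.9 in C GCB and 45.6, 43.4 and 42.8 in C BMPC. The promoter region Tlr6_2 (chr5:65351899-65352858, at -611 bp) was at 63.8, 55.8 and 48.8 in C nB, 55.4 and 47.3 in C GCB and 21.1, 20.8 and 19.5 in C BMPC. In KO Tlr6_1 was at 35.2 and 22.4 in nB, between 22.0 and 37.1 in GCB and at 45.9 and 34.0 in BMPC, and Tlr6_2 was at 26.5 and 22.0 in BMPC. Among the C libraries, those of BMPC were thus the highest at the start and the lowest at the upstream region, while at the start the KO libraries of BMPC overlapped those of nB and GCB. From nB to BMPC the changes in C were 0.59 ± 0.20 at Tlr6_1 (limma, adjusted p = 0.0140, not called) and -1.41 ± 0.13 at Tlr6_2 (adjusted p = 3.13e-10). In KO Tlr6_1 changed by 0.48 ± 0.25 (adjusted p = 0.113, not called) and Tlr6_2 fell by 1.14 ± 0.16 (adjusted p = 8.34e-07).

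The start of Tlr2, the receptor shared by both pairs, was more open in BMPC than in GCB. Tlr2_2 (chr3:83644851-83645974) was at 26.6, 28.1 and 24.01 RPPM in C nB, 13.2 and 15.5 in C GCB and 45.8, 35.9 and 30.4 in C BMPC. KO libraries gave 27.6 and 23.6 in nB, 22.0, 17.8, 21.0 and 14.7 in GCB and 40.0 and 44.8 in BMPC. GCB libraries were the lowest and BMPC libraries the highest in both genotypes, without overlap. The rise from GCB to BMPC was 1.31 ± 0.18 in C (limma, adjusted p = 1.09e-06) and 1.14 ± 0.17 in KO (adjusted p = 3.75e-06), and the change from nB to BMPC in C, 0.48 ± 0.16 (adjusted p = 0.0146), was not called.

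Downstream of the Tlr2 start, Tlr2_1 (chr3:83622234-83622958, 22571 bp away) was the only region called higher in C BMPC than in both C nB and C GCB. Its level was 1.95, 0.565 and 1.67 RPPM in C nB, 4.40 and 1.87 in C GCB and 10.3, 8.76 and 11.2 in C BMPC. Values in KO were 1.48 and 1.77 in nB, 0, 2.55, 2.19 and 3.50 in GCB, and 12.0 and 12.5 in BMPC. Every BMPC library was above every other library. The rise from nB to BMPC was 2.26 ± 0.40 in C (limma, adjusted p = 1.93e-05) and 2.34 ± 0.48 in KO (adjusted p = 2.09e-04). The rise from GCB to BMPC in C, 1.49 ± 0.44 (adjusted p = 6.23e-03), was not called with a pseudocount of 0.1 or 5 RPPM, with scaling that leaves out mitochondrial reads, or without C GCB replicate 2 (1.03) or each C BMPC replicate in turn (1.41 to 1.57). On the other side of Tlr2, Tlr2_4 at -25485 bp fell from 6.54 ± 0.640 in C nB to 2.48 ± 0.852 RPPM in C GCB and 1.68 ± 0.514 in C BMPC (SD). Its call between nB and GCB in C (-1.14 ± 0.31, adjusted p = 4.59e-03) was lost without each C nB replicate in turn (-1.18 to -1.07) and without C GCB replicate 2 (-0.88).

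Tlr4, the lipopolysaccharide receptor, had one of the more even starts. Tlr4_3 (chr4:66488281-66489626) was at 60.4, 56.1 and 55.1 RPPM in C nB, 55.9 and 58.1 in C GCB and 48.8, 36.3 and 39.5 in C BMPC. The KO libraries were at 52.8 and 58.6 in nB, 52.9, 54.1, 70.1 and 46.8 in GCB and 52.0 and 45.7 in BMPC. C BMPC libraries were the lowest of the C libraries, with a log2 change from nB of -0.46 ± 0.13 (limma, adjusted p = 3.18e-03) that is under 2-fold. Tlr4_4 (chr4:66504207-66504713, 15361 bp from the start) was at 9.99, 12.2 and 8.75 RPPM in C nB, 5.72 and 6.09 in C GCB and 1.04, 0.912 and 1.09 in C BMPC, and at 1.46 and 0.933 in KO BMPC. It lies outside genes in the table and inside a longer Tlr4 model in GENCODE vM1. Its change from nB to BMPC was -2.48 ± 0.25 in C (limma, adjusted p = 2.96e-09) and -2.39 ± 0.31 in KO (adjusted p = 3.49e-07). Tlr4_5, 243529 bp from the start, had 8, 19 and 14 reads in C nB, 11 and 9 in KO nB, and at most 2 reads in any GCB or BMPC library, where it was at or under the floor.

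Myd88, the shared adaptor, was called at its start in no comparison. Its start region Myd88_2 (chr9:119248694-119249448) was at 30.2, 24.5 and 26.8 RPPM in C nB, 35.6 and 33.3 in C GCB and 31.7, 30.7 and 36.1 in C BMPC. KO libraries were at 26.0 and 24.01 in nB, 31.9, 44.6, 34.6 and 33.6 in GCB and 29.2 and 29.3 in BMPC. The nB libraries were the lowest in both genotypes, without overlap. The widest change was that from nB to GCB in KO, 0.50 ± 0.15 on the log2 scale with a 95% confidence interval of 0.21 to 0.80 (limma, adjusted p = 5.495e-03), which is under 2-fold. From nB to GCB in C it was 0.34 ± 0.15 (adjusted p = 0.0796) and from nB to BMPC in C 0.27 ± 0.14 (adjusted p = 0.103). Myd88_1, the other region, was at or below 8.33 RPPM in all libraries and was called only from GCB to BMPC in KO (-1.19 ± 0.36, limma, adjusted p = 6.61e-03).

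KO was compared with C within each cell type to ask how loss of Dnmt3a and Dnmt3b bears on these regions. None of the 45 regions was called in nB, in GCB or in BMPC, where 0%, 0.0317% and 0.104% of all regions were called by limma. The counts over all regions rested on single libraries. In BMPC the 69 became 1 without either KO BMPC library, 11 or 15 without C BMPC replicate 2 or 3 and 209 without KO GCB replicate 1, and in GCB the 21 became 61 or 1 without C GCB replicate 1 or 2. None of the 45 was called in any of these fits. At an unadjusted p under 0.05 there were 0 of the 45 regions in nB, 3 in GCB and 7 in BMPC. Of all 66177 regions there were 1107, 7801 and 6320, a larger share in nB and GCB and a smaller one in BMPC. The median log2 fold change of the 45 regions was 0.02 in nB, -0.01 in GCB and 0.24 in BMPC, against -0.01, 0.03 and 0.03 for all regions. On recovered reads, edgeR called 1201 regions in BMPC by its quasi-likelihood test and 1677 by its likelihood ratio test, DESeq2 called 494, and none of the 45 was among them.

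The regions nearest to a call were at Tlr9 and Cd180. In BMPC, Tlr9_2 was at 11.9 and 12.1 RPPM in KO against 6.50, 5.47 and 8.41 in C, and the libraries did not overlap. The difference was 0.76 ± 0.26 on the log2 scale with a 95% confidence interval of 0.23 to 1.29 (limma, adjusted p = 0.214). Over the alternatives its adjusted p ranged from 0.0122 to 0.862 and the difference from 0.54 to 0.90. The Tlr9 start was also higher in KO BMPC, by 0.27 ± 0.11 (adjusted p = 0.364), with 62.3 and 63.5 RPPM against 49.7 to 53.5. In GCB, Cd180_8 was at 74.9, 74.5, 87.2 and 98.6 in KO against 111.7 and 107.7 in C, a difference of -0.39 ± 0.13 (adjusted p = 0.207). None of these differences passes the test over all regions.

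**Figure D4:**
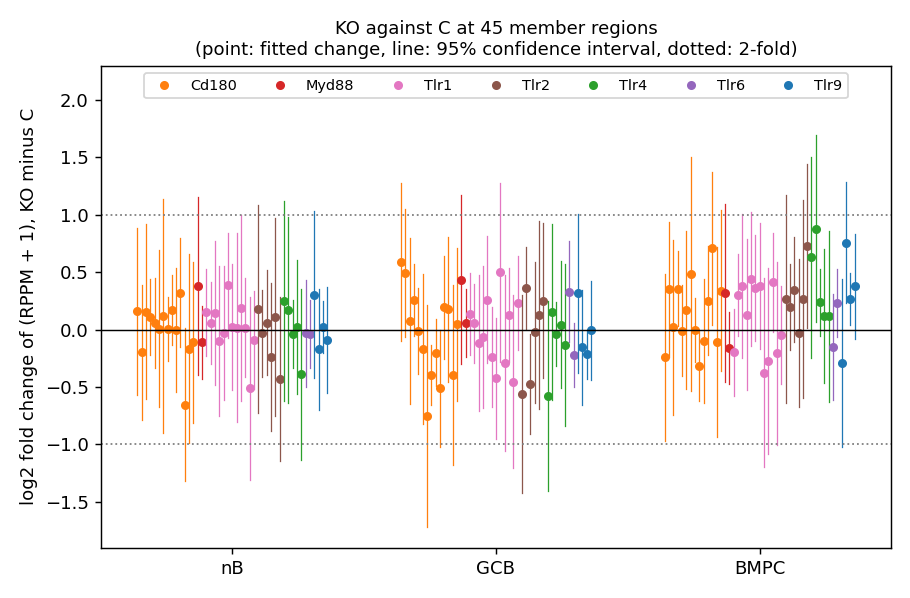
Fitted log2 fold change of (RPPM + 1), KO minus C, of each of the 45 regions in nB, GCB and BMPC, with 95% confidence intervals as lines, colors by gene and dotted lines at 2-fold. None of the points is called; the BMPC points have a median of 0.24 and Tlr4_2 is the highest at 0.88.

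Whether the effect of genotype differed between cell types was tested as an interaction in the same fit. None of the 45 regions was called for BMPC against nB, BMPC against GCB or GCB against nB, where 0% of all regions was called in each case. There were 4, 7 and 1 of the 45 regions at an unadjusted p under 0.05. Of all 66177 regions there were 3470, 5509 and 4107, a smaller share for both contrasts with BMPC and a larger one for GCB against nB. The lowest adjusted p among the 45 was 0.628, 0.325 and 0.803. The quasi-likelihood test of edgeR called 49, 19 and 0 of all regions and none of the 45. With 2 to 4 libraries a group, the standard error of a KO effect in BMPC ranged from 0.11 for the Tlr9 start to 0.50 for Cd180_7, so a 2-fold change of such a low region would lie at about 2 standard errors and could not be called.

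A list of 37 other genes of the pathway was described by the region nearest to each start. For 35 genes the table gave a region, which overlapped the start in 29. Tlr11 and Hsp90b1 had none. From nB to BMPC in C, 2 of the 35 rose and 2 fell, with a median log2 fold change of -0.01. Among all promoter regions 11.2% rose and 6.41% fell, and among all regions 18.0% and 20.1%. Ly86, which encodes MD-1, the partner of Cd180, fell from 59.8 ± 2.69 to 10.1 ± 2.43 RPPM (SD, n = 3), by 2.48 ± 0.16 on the log2 scale (SE; limma, adjusted p = 2.17e-13). Tlr3, the receptor for double-stranded RNA, fell by 2.15 ± 0.26 (adjusted p = 6.05e-08). In KO Ly86 and Tlr3 fell by 2.48 ± 0.19 and 2.27 ± 0.32. Of the 6 genes of accessory proteins with a region, Ly86 among them, 1 rose in KO and 0 in C.

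Among the other roles, Irf7, a transcription factor of the interferon response, rose from 58.2 ± 7.14 to 137.7 ± 5.12 RPPM (SD, n = 3) from nB to BMPC in C, by 1.24 ± 0.10 (SE; limma, adjusted p = 1.91e-11), and the adaptor gene Ticam2 rose by 1.103 ± 0.15 (adjusted p = 3.17e-07). In KO neither Ticam2 nor any other of the 5 adaptor genes was called in this comparison. Ly96, whose product MD-2 binds lipopolysaccharide with Tlr4, changed by 0.47 ± 0.14 in C and was not called. Of the 12 genes of kinases and ubiquitin signaling none was called from nB to BMPC in C, the extremes being Irak1 at 0.50 (from a region away from its start) and Traf6 at -0.68. The same was true of the 4 inhibitors, between Sigirr at -0.63 and Tnfaip3 at 0.29. Tlr12 at 0.49, Cd14 at 0.94, Pik3ap1 at -0.24 and Irf5 at 0.12 were the remaining extremes of their roles, none of them called.

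From nB to GCB in C, Traf3 and Tab1 fell (-1.30 ± 0.12 and -1.07 ± 0.22). Irf7 and the region nearest to Tlr5 rose (1.27 ± 0.11 and 1.43 ± 0.25). Of all promoter regions 6.99% fell and 8.88% rose. From GCB to BMPC in C 2 of the 35 rose, Traf3 and Tab1, and 4 fell, Tlr3, Tlr5, Ly86 and Irak4. Here 11.7% of all promoter regions rose and 7.33% fell. No gene of the list was called between KO and C in any cell type. Of all regions 0%, 0.0317% and 0.104% were called in nB, GCB and BMPC.

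Markers of other cells were also read. Of 7 myeloid genes 5 had a region, and only that of Itgam overlapped a start, at 4.04, 1.13 and 1.14 RPPM on average in C nB, GCB and BMPC. The myeloid regions summed to between 35.1 and 45.6 RPPM in C nB, between 53.2 and 60.0 in C GCB and between 11.3 and 16.7 in C BMPC. In KO the sums ran from 40.6 to 41.7, from 61.7 to 69.4 and from 13.2 to 14.2. The 3 T cell genes with a region, none over a start, summed to between 63.5 and 67.6 in C nB, 23.8 and 27.6 in C GCB and 54.8 and 61.9 in C BMPC, and the 2 erythroid genes, none over a start, to between 48.6 and 63.8, 29.0 and 38.4, and 56.9 and 67.1. In KO the T cell sums ran from 67.9 to 74.7 in nB, 19.6 to 30.25 in GCB and 42.2 to 43.7 in BMPC. The KO BMPC libraries thus lay below those of C BMPC, and the part of this was not tested. The erythroid sums in KO ran from 54.5 to 70.1, 37.45 to 61.7 and 61.6 to 62.0. The myeloid sum was lowest in BMPC, as were most of the 45 regions, and its part in these results was not tested. Regions of the mitochondrial chromosome took 7.43% to 10.1% of reads in GCB libraries and 2.56% to 4.59% in the others, and scaling without them left the counts of called regions at 8, 25 and 20 for nB to GCB, nB to BMPC and GCB to BMPC in C.

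The genes with the pattern most like that of each of the 7 start regions were found by Pearson's r of log2(RPPM + 1) over the 16 libraries. Each of 15082 genes entered with the region nearest to its start, which need not overlap the start. For Tlr9 these were 1700073E17Rik (0.98, from a region at -7830 bp) and Nceh1 (0.96, from a region at 10672 bp), for Cd180 Fam78b and Klf9 (each 0.90), and for Tlr1 Tgfb1 (0.97), Tcn2 (0.96) and Sike1 (0.96). For Tlr2 they were Hcfc2 (0.96), Ercc3 (0.95) and Pag1 (0.95), for Tlr4 Rnls (0.94), Npepl1 (0.88) and I830077J02Rik (0.87), for Tlr6 Zfp870 (0.90), Taf1c (0.88) and Rab19 (0.86), and for Myd88 Mbtps2 (0.88), Olfr1373 (0.87, from a region at 1319 bp) and Htr3b (0.87, from a region at -7536 bp). The libraries share cell type and depth, and the values are a description.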

How the data were processed

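ATAC-seq libraries of 3000 to 5000 sorted cells were sequenced, and per the submitters' processing notes reads were handled with Bowtie 1.1.1, Picard 1.127, MACS2 2.1.0.20140616 and edgeR 3.12.1 on mm9. The authors called peaks per sample, merged them, and deposited an RPM value, called RPPM here, which scales a region's reads to 1000000 reads over all regions. The deposited table also holds the authors' fold changes and p-values between groups, which were not used. Of 17 labelled samples 16 were analysed, since 1 KO BMPC sample has no column. Whole reads could be recovered from 100% of values (tolerance 0.01 read).

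Groups follow the labels. limma 3.58.1 in R 4.3.3 was fitted to log2(RPPM + 1) in 1 fit of 6 group means, with the variance trended on the mean and Benjamini-Hochberg adjustment over 66177 regions. Calls needed an adjusted p no higher than 0.01 and a 2-fold change. Alternatives were pseudocounts of 0.1 and 5 RPPM, only regions averaging 1 RPPM or more, TMM scaling, scaling without chrM, the compared groups only, an adjusted p of at most 0.05, each library left out, a replicate block, and edgeR 4.0.16 and DESeq2 1.42.0 on the recovered reads, of which the quasi-likelihood test called 14431 rises and 15281 falls from nB to BMPC in C. The fits were tested on simulated data. Some marker, genotype and likeness items are not reported here. The rule for named regions was the start region of each gene, regions called between KO and C, and each gene's largest called change from nB to BMPC and from nB to GCB in C. Others are said to have been chosen after their values were seen. The members and lists were chosen with earlier results of these data known. Sequences were read from NCBIM37 (mm9), whose chromosomes hold 65893 of the regions. Floors cover counting error only, since reads carried no molecular identifiers. Libraries of nB and BMPC came from single mice, and p-values measure the spread between libraries.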

Additional observations from a re-analysis of the deposited data

Results flagged for a closer look

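In groups of 4 libraries, which here means KO GCB, a library was singled out when its gap to the next one took most of the range of the group. Tlr4_4 was at 7.69 RPPM in KO GCB replicate 4 against 5.51 to 5.73 in the other libraries. Tlr4_5 was at 0.438 RPPM in KO GCB replicate 3, which is 1 read, and at 0 in the others. Chance alone marks about 1 in 20 such groups, and 22 were examined. A lone read among libraries at 0, as at Tlr4_5, is always marked, so this rate does not hold there.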

How the results depend on the processing

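Between cell types, the number of the 45 regions called stayed within 1.5 times the reported number in 154 of 162 recomputations. With a pseudocount of 5 RPPM it fell to 2, 14 and 10 for nB to GCB, nB to BMPC and GCB to BMPC in C and to 3, 12 and 8 in KO, as this pseudocount shrinks changes of low regions, and with 0.1 RPPM it was 4 for nB to GCB in C. Leaving out each library in turn gave 5 to 8, 23 to 25 and 17 to 21 regions in C and 3 to 8, 20 to 25 and 13 to 19 in KO, the 3 for nB to GCB in KO coming without KO nB replicate 1. KO against C and the interactions had 0 called regions under all alternatives run. Among 144 fold changes of named regions, no called one changed sign, 39 of 3879 recomputed values lost a call and 25 gained one. Of values that were not called, 65 changed sign. Between KO and C in BMPC, the count over all regions depended on the tool, with 69 by limma and 1201 by the quasi-likelihood test of edgeR. Where a group is left with 1 library, that library is assumed to vary like the other groups. Pools F2 and M1 of GCB occur in both genotypes, each from mice of the same sex, and their deviations from the group means correlated at 0.04 and 0.07. With 2 C GCB libraries, whose deviations mirror each other, this cannot show whether the pools are paired, and they were not treated as such. With the replicate block of these pools, 7, 25 and 21 regions were called in C, 9, 26 and 19 in KO, and 0 between KO and C, while the counts over all regions between KO and C became 135 in place of 21 in GCB, and 422 in place of 69 in BMPC. GCB libraries, of at most 2280954 reads, limit what can be said of low regions.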
